A study of Mus musculus with 24 samples.

Results

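Genes of growth arrest and of the p53 response were followed in mice whose hepatocytes lack *Crif1*. They are *Cdkn1a*, *Mdm2*, *Ccng1*, *Phlda3*, *Trp53inp1*, *Bax*, *Gadd45a*, *Gadd45b*, *Gadd45g* and *Btg2*, 10 of the 24532 genes in the joined expression table, taken as a list of symbols that was drawn up with earlier results of these data known. All 10 were found, and all 10 reached the level needed for a test in each of the 4 tissues. RNA from liver, inguinal white adipose tissue (iWAT), gastrocnemius muscle (GM) and hypothalamus was sequenced from C57BL/6 mice that were 8 weeks old and ate chow. Control mice (Ctrl) carried floxed *Crif1* alleles (*Crif1* flox/flox), and liver knockout mice (LKO) carried the same floxed alleles and Cre under the albumin promoter, which is active in hepatocytes. There were 3 Ctrl and 3 LKO libraries per tissue, 24 in all. Nothing in the labels ties the tissues to individual mice. *Crif1*, listed as *Gadd45gip1*, encodes a protein of the mitochondrial ribosome.

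The transcription factor p53 is held low by the ubiquitin ligase that *Mdm2* encodes, and after DNA damage and other stresses it accumulates and activates genes that stop the cell cycle, repair DNA or start apoptosis. *Mdm2* is itself a p53 target, which closes a negative feedback loop. Several of the genes described here also respond to other signals: *Gadd45b* and *Btg2* are immediate early genes, and *Gadd45a* is a target of the integrated stress response, which slows translation while it raises transcripts of the ATF4 program.

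In liver 9 of the 10 genes had every LKO library above every Ctrl library, as did 53% of the 10956 genes tested there. *Gadd45a* had the largest change, 21.3-fold by the group means, and *Trp53inp1* the smallest of the 9, 1.93-fold. *Gadd45g* was the exception, with overlapping groups. The same 9 passed the adjusted criterion upward, beside 23.9% of the genes tested (27.4% in either direction, 3.5% downward). This criterion asks for a fold change of at least 1.5 on log2(FPKM + 1) and an adjusted p under 0.05 (limma, Benjamini-Hochberg over all genes tested in the tissue). In iWAT, GM and hypothalamus none of the 10 passed it, where 0%, 0% and 0.0217% of the genes tested did. FPKM counts fragments per kilobase of a transcript in relation to the size of the library.

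The DNA just before the transcription starts of these genes was searched for the p53 half-site, the short palindromic consensus of which p53 usually binds a pair. RefSeq promoter windows (GRCm38.p6, 250 bases before to 50 after a start) were at hand for 9 of the 10 genes, in 10 windows, since *Cdkn1a* has 2 starts. *Trp53inp1* has no window. A match to the half-site consensus, searched on both strands, stood in 5 of the 10 windows and in 8.36% of all 32851 windows. Genes of the p53 response were chosen for the list, so these shares are a description with no test. Sites outside the windows were not searched. The stretches of the 5 windows are shown because they hold a match. Each is written 5′ to 3′ on the strand of the gene, with the matched letters in capitals.
Cdkn1a, upstream start, chr17:29090881-29090962, plus strand: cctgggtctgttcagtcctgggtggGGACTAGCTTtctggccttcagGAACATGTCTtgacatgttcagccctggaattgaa
Mdm2, chr10:117710910-117710969, minus strand: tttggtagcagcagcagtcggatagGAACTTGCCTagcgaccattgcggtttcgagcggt
Ccng1, chr11:40755437-40755496, minus strand: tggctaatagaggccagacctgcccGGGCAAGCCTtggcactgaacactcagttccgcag
Bax, chr7:45467065-45467124, minus strand: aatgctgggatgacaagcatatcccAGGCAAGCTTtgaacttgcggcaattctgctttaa
Gadd45a, chr6:67037413-67037472, minus strand: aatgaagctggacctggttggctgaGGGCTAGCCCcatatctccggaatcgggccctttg

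The window of the upstream *Cdkn1a* start was the only one of the 10 with a pair of matches up to 13 bases apart. This arrangement was found in 24 of the 32851 windows (0.0731%). The *Cdkn1a* matches began 73 and 51 bases before the upstream start, and the window of its other start had no match. The single matches began 186 bases before the start in *Mdm2*, 185 in *Ccng1*, 201 in *Bax* and 40 in *Gadd45a*. The cyclic AMP response element TGACGTCA, which is its own reverse complement, was found in the *Btg2* window alone of the 10 and in 1.79% of all windows. The *Btg2* window had no match to the half-site, and its stretch is shown because it holds this element. The CHOP and ATF4 type element TGATGNAA, searched on both strands, stood in 3.97% of all windows and, among the 10, in that of *Gadd45g*. Overlap between motifs was not scored, and a match describes letters and no binding.
Btg2, chr1:134079289-134079346, minus strand: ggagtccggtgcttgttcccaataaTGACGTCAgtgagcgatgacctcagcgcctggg
Gadd45g, chr13:51846549-51846606, plus strand: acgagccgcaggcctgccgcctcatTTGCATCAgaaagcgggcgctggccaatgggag

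The libraries matched their labels. *Crif1* in liver was 14.6, 12.5 and 13.6 FPKM in Ctrl and 5.40, 2.0 and 2.51 FPKM in LKO (log2 fold change −1.84, adjusted p = 0.00357, limma), with the highest remaining level in LKO 1. Summed markers of hepatocytes, adipocytes, skeletal muscle and neurons were each highest in the tissue they mark. In iWAT the summed muscle markers ran from 39.7 to 942 FPKM, highest in Ctrl 1 (603 FPKM) and LKO 2 (942 FPKM). Depth, inferred from the deposited coverage, was 4.45 to 8.09 gigabases per library. The median log2 fold change of all genes tested in liver was 0.33 with the FPKM as deposited. It was −0.04 once the libraries were scaled by median ratio, which divides each library by the median ratio of its genes to their geometric mean. The liver changes of the 10 genes and the counts of the gene lists are therefore given on both scales. Other named genes have their value, where one is given, on the deposited scale. Where scaling ended the call of a gene with a value, this is said. In a whole tissue, fewer cells of a type and less RNA per cell cannot be told apart.

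*Cdkn1a* encodes p21, the inhibitor of cyclin-dependent kinases that carries out the p53 arrest of the cell cycle. Its level in Ctrl liver was 20.4, 19.2 and 28.05 FPKM, and in LKO liver 57.6, 84.7 and 90.5 FPKM. The lowest LKO library stood above the highest Ctrl library. The log2 fold change was 1.73 ± 0.21 (SE; 95% interval 1.24 to 2.22; adjusted p = 0.00193, limma), and 1.3 after median-ratio scaling (adjusted p = 0.00351). Of the 10956 genes tested in liver, 1.85% had a higher log2 fold change. *Cdkn1a* had the highest group mean of the 10 genes in both genotypes, 22.6 ± 4.79 FPKM in Ctrl and 77.6 ± 17.6 FPKM in LKO liver (SD, n = 3 each). In the GENCODE annotation 273 exon bases of *Cdkn1a* are shared with *AC167363.2*, on the opposite strand, whose reads these libraries could not separate.

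*Mdm2* was 9.21, 9.53 and 9.37 FPKM in Ctrl liver and 13.7, 21.4 and 24 FPKM in LKO liver. The Ctrl libraries had an SD of 0.162 FPKM, and each LKO library was above them. Its log2 fold change was 0.96 ± 0.20 (adjusted p = 0.0104, limma). After median-ratio scaling it was 0.55 (adjusted p = 0.0184), which is under the 1.5-fold limit, so that the call was lost on that scale. Without LKO 2 the adjusted p was 0.0529, and over all settings tried it ran from 1.15e-05 to 0.0587.

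*Ccng1*, which encodes cyclin G1, a p53 target that recruits a phosphatase to MDM2, had the lowest level of its 4 tissues in Ctrl liver. Its values there were 8.46, 7.64 and 9.42 FPKM, against 15.9, 28.6 and 35.8 FPKM in LKO liver. LKO 1 was the lowest LKO library and still above every Ctrl library. LKO exceeded Ctrl by a log2 fold change of 1.48 ± 0.27 (adjusted p = 0.00722, limma) and 1.06 after median-ratio scaling (adjusted p = 0.0104). The call was lost with ordinary variances, each gene keeping its own (adjusted p = 0.0544, in a range of 3.55e-06 to 0.0544 over all settings).

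*Phlda3* encodes a protein that competes with AKT for membrane lipids and so lowers AKT activity. It was 0.403, 0.53 and 0.405 FPKM in Ctrl liver and 2.71, 5.81 and 7.13 FPKM in LKO liver. No Ctrl liver library reached 1 FPKM, so the gene was tested only because its LKO libraries did. This gave a log2 fold change of 2.03 ± 0.27 (adjusted p = 0.00263, limma), or 1.77 after median-ratio scaling (adjusted p = 0.0028). The pseudocount of 1 FPKM lowers this value: the group means differed 11.7-fold.

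*Trp53inp1*, whose product assists p53 and autophagy, was 24.5, 19.4 and 19.6 FPKM in Ctrl liver and 30.8, 42.1 and 50.1 FPKM in LKO liver. The groups stood apart by the gap between 24.5 and 30.8 FPKM. Its log2 fold change was 0.90 ± 0.19 (adjusted p = 0.0113, limma), and 0.47 after median-ratio scaling (adjusted p = 0.0274), again under the 1.5-fold limit. This call was also lost when Ctrl 2, Ctrl 3 or LKO 2 was left out (adjusted p 0.0513, 0.05003 and 0.0539, in a range of 0.000331 to 0.0617 over all settings).

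*Bax* encodes the pore-forming BCL2 family protein that permeabilizes the outer mitochondrial membrane. Its Ctrl liver values were 17.3, 17.7 and 16.2 FPKM, and its LKO liver values 28.3, 54.2 and 66.2 FPKM. LKO 1 was again lowest within its group and above Ctrl. The log2 fold change was 1.40 ± 0.28 (adjusted p = 0.00994, limma) and 0.97 after median-ratio scaling (adjusted p = 0.0162). With ordinary variances this call was lost too (adjusted p = 0.0642, in a range of 2.46e-05 to 0.0642 over all settings). By group mean *Bax* stood below *Cdkn1a*, *Trp53inp1* and *Gadd45g* in Ctrl liver, and below *Cdkn1a* alone in LKO liver. *Bax* shares 192 exon bases with the protein-coding *Gm45808* on the same strand in GENCODE, and how the counting split such reads is not given in the sources used here.

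The 3 GADD45 genes encode small nuclear proteins that bind cyclin B1 with CDK1, PCNA and the kinase MAP3K4. *Gadd45a* was 1.25, 0.792 and 0.41 FPKM in Ctrl and 7.83, 18.4 and 25.8 FPKM in LKO liver, with 1 of the 3 Ctrl libraries at 1 FPKM or more. Its log2 fold change of 3.22 ± 0.39 (adjusted p = 0.00197, limma) was exceeded by 0.283% of the genes tested, and was 2.91 after median-ratio scaling (adjusted p = 0.00265). *Gadd45a* overlaps the long noncoding *E230016M11Rik* on the opposite strand by 809 bases, and the library kit does not mark strand, so that reads of the pair cannot be told apart. *E230016M11Rik* was listed at 0.37 to 0.846 FPKM in Ctrl and 0.374 to 0.473 FPKM in LKO liver.

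*Gadd45b* was 0.78, 0.32 and 0.461 FPKM in Ctrl and 5.42, 4.89 and 4.91 FPKM in LKO liver. The 3 LKO values lay closer together than those of any other of the 9 higher genes, and no Ctrl library reached 1 FPKM. The log2 fold change was 2.01 ± 0.14 (adjusted p = 0.000313, limma) and 1.75 after median-ratio scaling (adjusted p = 0.00147).

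*Gadd45g* was 16.5, 21.3 and 21.8 FPKM in Ctrl and 9.13, 35.4 and 22.5 FPKM in LKO liver. LKO 1 lay below the Ctrl range, and LKO 2 and LKO 3 above it. The log2 fold change was −0.01 (95% interval −0.999 to 0.97; adjusted p = 0.983, limma), and −0.44 after median-ratio scaling (adjusted p = 0.405). The interval is wide, and the test does not show that the level was the same. Without LKO 1 the log2 fold change was 0.50 (adjusted p = 0.0499, the lowest of all settings), under the 1.5-fold limit.

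Because FPKM is per transcript length, the 3 genes can be added. *Gadd45g* made up 89.0%, 95.05% and 96.2% of their summed FPKM in Ctrl and 40.8%, 60.3% and 42.3% in LKO liver. These shares restate the higher *Gadd45a* and *Gadd45b* levels given above, beside a *Gadd45g* level that did not pass, and are no separate result.

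*Btg2*, an antiproliferative gene whose product binds the CCR4-NOT deadenylase, was 2.44, 2.61 and 3.23 FPKM in Ctrl and 14.7, 12.6 and 15.2 FPKM in LKO liver. All LKO values were at least 12.6 FPKM and no Ctrl value exceeded 3.23 FPKM. *Btg2* had a log2 fold change of 2.01 ± 0.13 (adjusted p = 0.000286, limma) and 1.64 after median-ratio scaling (adjusted p = 0.00119). This was the lowest adjusted p of the 10 genes.

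**Figure D1:**
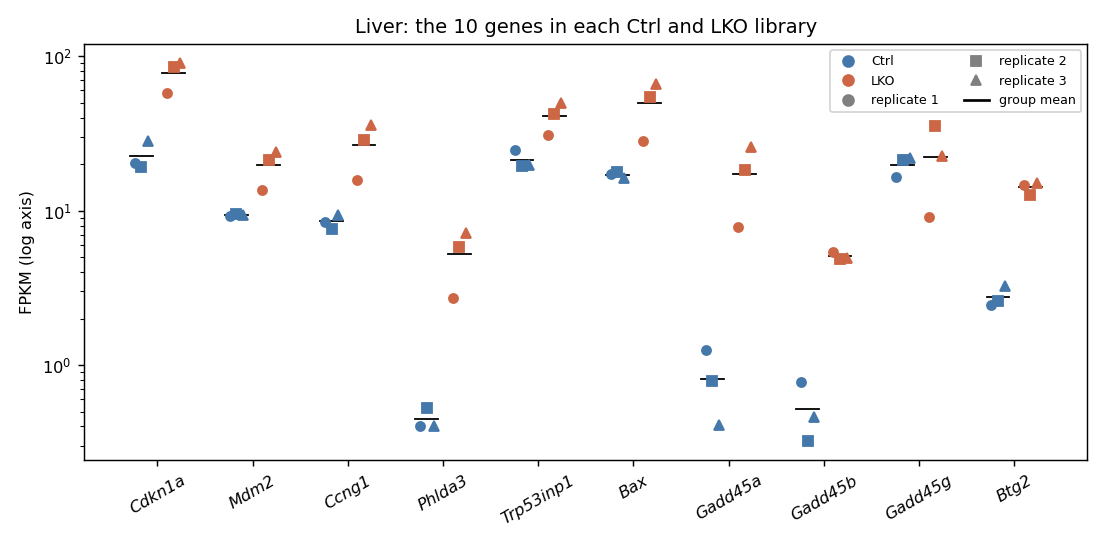
Level of the 10 genes in each liver library, in FPKM on a log axis; colours give the genotype, marker shapes the replicate number and bars the group mean of 3 libraries. The groups overlap for *Gadd45g* alone, and the LKO 1 circle is the lowest LKO point in 8 of the 10 genes.

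After median-ratio scaling 7 of the 10 passed upward, *Mdm2* and *Trp53inp1* being the calls lost. On that scale 8.99% of the genes tested passed upward and 8.53% downward. *Phlda3*, *Gadd45a* and *Gadd45b* reached the minimum level through their LKO libraries. LKO 1, the LKO liver with the most remaining *Crif1*, was the lowest LKO library in 8 of the 10 genes and in 69.6% of the genes tested. Without it 8 of the 10 could be tested and 7 passed, beside 32.5% of all genes upward. *Gadd45b* and *Btg2* did not have their lowest LKO value there.

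Cell type markers also differed between the livers. The summed FPKM of 15 macrophage, monocyte and neutrophil markers was 160 to 170 in Ctrl and 385 to 584 in LKO liver. Of the 15, 11 could be tested and these passed upward, beside 23.9% of all genes, led by *Marco* (log2 fold change 2.92), *Cd68* (1.87) and *S100a8* (1.75). After median-ratio scaling 11 passed as well. No Ctrl liver reached 1 FPKM of *S100a8*, which was thus tested only through its LKO libraries. *Ly6g*, a defining neutrophil marker, was listed at 0 in all Ctrl livers and could not be tested, so no change is read for it. Of the 15 markers 2 were under 1 FPKM in every LKO liver. The summed FPKM of 8 hepatocyte markers was 57961 to 60950 in Ctrl and 42633 to 68093 in LKO liver, where LKO 1 had the highest and LKO 3 the lowest sum. Of these 8, 2 passed downward on either scale, *Cyp2e1* (−1.5) and *Serpina1a* (−0.92), beside 3.5% of all genes, and the median was −0.13. Of 8 adipocyte markers 4 could be tested and 3 passed upward, *Cidec* (2.58), *Pparg* (1.56) and *Fabp4* (0.84), beside 23.9% of all genes. The 4 that could not be tested were under 1 FPKM in every LKO liver. The summed FPKM of the 8 was 19.9 to 22.2 in Ctrl and 44.8 to 55.3 in LKO liver. After scaling 2 passed, beside 8.99% of all genes upward, and *Fabp4* (0.42) did not. The part of these cell types in the change of the 10 genes was not tested.

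The genes around the 10 were described in lists. A gene that no Ctrl liver held at 1 FPKM was tested only because its LKO libraries reached that level, and the number of such genes is given for the lists that hold any. List counts stand beside 23.9% of all genes upward and 3.5% downward, and after median-ratio scaling beside 8.99% and 8.53%. Of 20 genes of p53 and its regulators 16 were tested in liver. Of these 4 rose, 25%, beside 23.9% of all genes tested, and none fell, with a median log2 fold change of 0.39 beside 0.33 for all genes tested, and none passed after median-ratio scaling. For 1 of the 4, *Chek2*, named after its value was seen, no Ctrl liver reached 1 FPKM. *Trp53* itself was 10.6 ± 1.59 FPKM in Ctrl and 19.7 ± 6.30 FPKM in LKO liver (SD, n = 3 each; log2 fold change 0.80, adjusted p = 0.0272, limma). Scaled, its value was 0.38 (adjusted p = 0.0935). *Rchy1*, a ubiquitin ligase for p53, changed by 0.83 (adjusted p = 0.0364) and the damage kinase gene *Atr* by 0.72 (adjusted p = 0.0195). Scaled, *Rchy1* was at 0.42 (adjusted p = 0.186) and *Atr* at 0.43 (adjusted p = 0.0319), both under the 1.5-fold limit. *Mdm4*, the partner of *Mdm2* in holding p53 down, ran from 0.908 to 1.42 FPKM in Ctrl and from 1.25 to 8.62 FPKM in LKO and did not pass (log2 fold change 1.06, adjusted p = 0.0987).

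Among 39 further p53 targets, 32 were tested in liver, of which 14 rose (43.8%, beside 23.9% of all genes) and 1 fell. Their median log2 fold change was 0.61. After median-ratio scaling 7 rose and 1 fell, where 8.99% and 8.53% of all genes did, with a median of 0.22 beside −0.04 for all genes. On log2(FPKM + 1) the largest changes among the tested genes were those of *Gdf15*, *Plk2* and *Psrc1*. *Gdf15*, a secreted stress hormone, was at 3.19 (adjusted p = 0.00149, limma) and *Plk2*, a polo-like kinase, at 1.97 (adjusted p = 0.00103). *Psrc1*, a microtubule protein of the mitotic spindle, was at 1.65 (adjusted p = 0.000351). *Gdf15* and *Sesn2* are also in the integrated stress response list. For 2 of the 14, *Psrc1* among them, no Ctrl liver reached 1 FPKM.

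Of 17 BCL2 family genes other than *Bax* 14 were tested, and 6 rose (42.9%, beside 23.9% of all genes) and none fell (median 0.34). *Bcl2l1*, which encodes the antiapoptotic BCL-XL, had a log2 fold change of 0.80 (adjusted p = 0.0133). After median-ratio scaling it was 0.38 (adjusted p = 0.0351), under the 1.5-fold limit, and the call was lost. *Bcl2a1b* (1.29) and *Bcl2a1a* (0.99) are near-identical copies whose reads may be split between them, and both were under 1 FPKM in every Ctrl liver. After median-ratio scaling 2 of the 14 rose and 1 fell.

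The list of cyclin-dependent kinase inhibitors, cyclins and kinases of G1 had 16 tested genes, of which 6 rose (37.5%, beside 23.9% of all genes) and none fell (median 0.56; 3 and 1 after median-ratio scaling). For 1 of the 6, *Ccne1*, no Ctrl liver reached 1 FPKM. Genes that oppose and genes that drive the cycle were both among them. The inhibitor *Cdkn2c* was 2.49 ± 0.440 FPKM in Ctrl and 8.05 ± 1.20 FPKM in LKO liver (log2 fold change 1.37, adjusted p = 0.00149). Cyclin D1, from *Ccnd1*, was 6.19 ± 1.85 FPKM and 44.8 ± 6.35 FPKM (2.69, adjusted p = 0.000389), and *Ccne1* changed by 0.80 (adjusted p = 0.0022). Of 19 proliferation genes tested 18 rose (94.7%, beside 23.9% of all genes; median 1.71), with *Cdc20* at 3.71, *Ccnb1* at 3.19 and *Ccnb2* at 2.94 on the log2 scale, and 13 rose and 1 fell after median-ratio scaling. For 9 of the 18, *Ccnb1* and *Ccnb2* among them, no Ctrl liver reached 1 FPKM.

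The list of paralogs and binding partners of the 10 genes had 16 tested genes, among them *Crif1*, the deleted gene, which is left out of the counts here. Of the other 15, 4 rose (26.7%, near the 23.9% of all genes) and 2 fell (13.3%, beside 3.5%), with a median of 0.35. After median-ratio scaling 2 rose and 3 fell. *Btg3*, of the same antiproliferative family as *Btg2*, rose by 1.52 (adjusted p = 0.00549), with no Ctrl liver at 1 FPKM. *Phlda1*, a relative of *Phlda3*, fell by 1.43 on the log2 scale (adjusted p = 0.0159). The other of the 2 fallen genes was *Trp53inp2*, named after its value was seen, the paralog of *Trp53inp1* (−0.74).

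Of 16 integrated stress response genes 12 rose (75%, beside 23.9% of all genes) and none fell (median 2.81), led by *Nupr1* (6.85), *Trib3* (4.51) and *Fgf21* (4.28). Of 13 immediate early genes 8 rose (61.5%, beside the same 23.9%) and none fell (median 1.46), led by *Atf3* (4.19), *Myc* (2.86) and *Egr1* (2.82). Of 15 glucocorticoid and FOXO responsive genes 6 rose (40%, again beside 23.9%) and 2 fell (median 0.56), with *Mt2* at 5.54, *Mt1* at 4.53 and *Pdk4* at 4.2. After median-ratio scaling these counts were 11 and 0, 8 and 0, and 6 and 2. No Ctrl liver reached 1 FPKM for 3 of the 12 and for 2 of the 8, *Atf3* being counted in both.

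**Figure D2:**
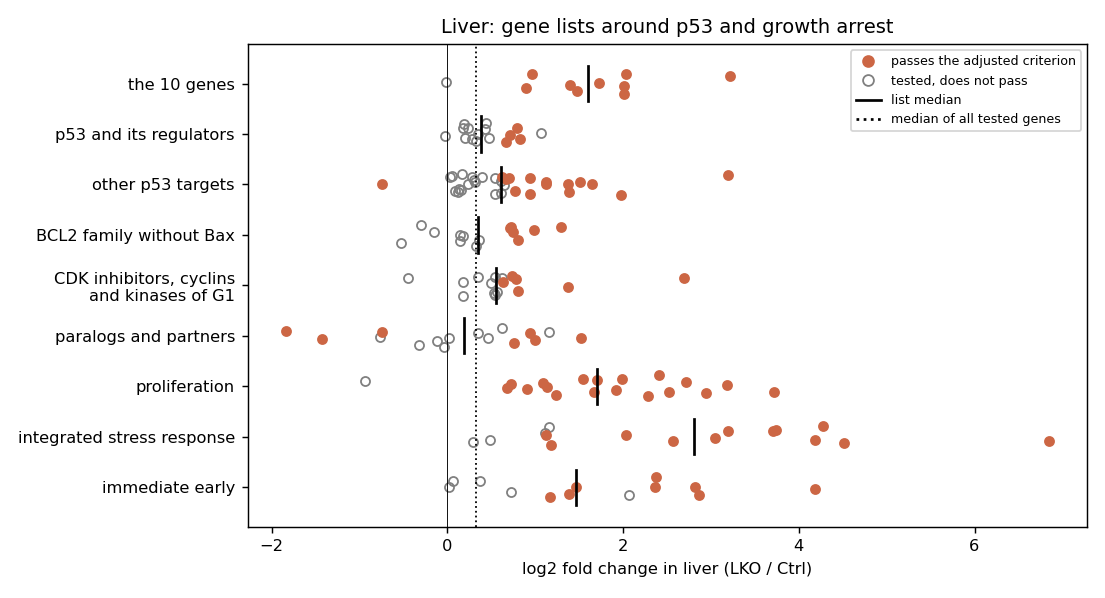
Log2 fold change (LKO / Ctrl, on FPKM + 1) in liver of every tested gene of 9 lists, 1 point per gene with random vertical spread; filled points pass the adjusted criterion, black bars are list medians and the dotted line is the median of all tested genes, 0.33. The 10 genes have a median of 1.60, p53 and its regulators 0.39 and the integrated stress response 2.81.

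In iWAT none of the 10 genes passed with an adjusted p (limma), none had an unadjusted p under 0.05 (15% of all genes did), and the groups overlapped for all 10. Of the 12288 genes tested there 3.25% passed the 1.5-fold limit with an unadjusted p under 0.05, and 20.8% did not overlap. The log2 fold changes of the 10 ran from −0.95 to 0.23. *Phlda3* had the lowest, with 254, 179 and 183 FPKM in Ctrl and 218, 83.1 and 62.2 FPKM in LKO (adjusted p = 0.379, limma). LKO 1 lay within the Ctrl range and the other 2 LKO libraries below it, and without LKO 1 it was the 1 gene of the 10 to pass with unadjusted p (log2 fold change −1.48), beside 4.92% of all genes. *Cdkn1a* was 75.8, 71.9 and 87.0 FPKM in Ctrl and 64.7, 66.4 and 76.3 FPKM in LKO iWAT (log2 fold change −0.17, 95% interval −0.42 to 0.07, adjusted p = 0.478).

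In GM none of the 10 passed the adjusted criterion, nor did any of the 10877 genes tested (0%, limma). Of the 10, 3 had an unadjusted p under 0.05, beside 6.83% of all genes, and 2 of these passed the 1.5-fold limit upward, where 0.579% of genes did. *Trp53inp1* was 3.32, 3.38 and 3.55 FPKM in Ctrl and 5.22, 6.66 and 6.29 FPKM in LKO muscle (log2 fold change 0.67 ± 0.10, adjusted p = 0.33, limma). *Gadd45a* was 20.1, 23.9 and 15.1 FPKM in Ctrl and 25.8, 31.3 and 32.9 FPKM in LKO muscle (0.60 ± 0.17, adjusted p = 0.558). Both genes had every LKO library above every Ctrl library, which held upward for 4.38% of genes. For *Trp53inp1* the adjusted p was 0.0416 without LKO 1, a fit in which 13 of all genes tested passed the adjusted criterion. Over all settings its adjusted p reached 0.9998.

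The other 8 genes overlapped between the genotypes in GM. *Gadd45g* was 86.8, 127 and 139 FPKM in Ctrl and 69.5, 95.1 and 74.6 FPKM in LKO muscle, and 1 LKO library lay within the Ctrl range (log2 fold change −0.54, under the 1.5-fold limit, adjusted p = 0.654, limma). *Phlda3* was 57.7, 49.9 and 156 FPKM in Ctrl and 42.8, 55.3 and 25.4 FPKM in LKO (−0.95, adjusted p = 0.766). Its Ctrl spread came from 1 library, and without Ctrl 3 the value was −0.44. *Cdkn1a* was 14.8, 16.8 and 21.2 FPKM in Ctrl and 18.6, 26.5 and 23.3 FPKM in LKO, with overlapping groups (0.35, adjusted p = 0.756).

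In hypothalamus none of the 10 passed the adjusted criterion or the unadjusted one, beside 0.0217% and 0.333% of the 13828 genes tested. The groups did not overlap for *Mdm2*, *Gadd45b* and *Btg2*, with LKO lower, which held for 4.97% of genes. These differences were under the 1.5-fold limit, and *Gadd45b* was the 1 gene of the 10 with an unadjusted p under 0.05, beside 3.72% of all genes. *Gadd45b* was 4.86, 4.95 and 5.79 FPKM in Ctrl and 4.31, 4.45 and 4.27 FPKM in LKO (log2 fold change −0.21, adjusted p = 0.999, limma), and the values were −0.10 for *Mdm2* and −0.15 for *Btg2*. *Cdkn1a* was 9.52, 15.2 and 18.9 FPKM in Ctrl and 17.3, 20.5 and 21.1 FPKM in LKO, with overlap (0.45, adjusted p = 0.999).

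Outside liver no gene of the surrounding lists passed the adjusted criterion. At an unadjusted p under 0.05 and 1.5-fold or more, 8 of 191 listed genes were higher and 8 lower in LKO iWAT, beside 3.25% of all genes in either direction. In GM 9 of 161 were higher, beside 0.579% of all genes. Of these 9, 6 were among the 17 glucocorticoid and FOXO responsive genes tested and 1 among the 26 further p53 targets tested. In hypothalamus 2 of 167 were higher and 2 lower, beside 0.333% in either direction. The 2 higher were of the glucocorticoid and FOXO list and the 2 lower of the immediate early list. A gene in 2 lists counts in both. Among the p53 targets *Bbc3*, which encodes the proapoptotic PUMA, was 7.33 ± 1.3 FPKM in Ctrl and 3.52 ± 0.469 FPKM in LKO iWAT (SD, n = 3 each; log2 fold change −0.88, adjusted p = 0.093, limma). *Sesn1*, a sestrin, was 9.50 ± 2.18 and 16.8 ± 0.982 FPKM in GM (0.78, adjusted p = 0.379). In iWAT the largest such difference in each of the other pathway lists with any was that of *Cdkn2c* (−0.98), *Gas1* (−0.91), *Egr1* (0.69) and *Zbtb16* (1.86). Of the 16 genes counted in iWAT 5 were cell type markers: 2 of the macrophage, monocyte and neutrophil list, the larger *S100a9* (1.69), *Alb* of hepatocytes (1.39), and 2 of adipocytes, the larger *Lep* (−1.29). The largest in each such list was *Pdk4* (2.15), *Chac1* (1.57) and *Egr1* (0.91) in GM, and *Zbtb16* (1.46) and *Fos* (−0.68) in hypothalamus. Further genes of the same lists are not named.

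**Figure D3:**
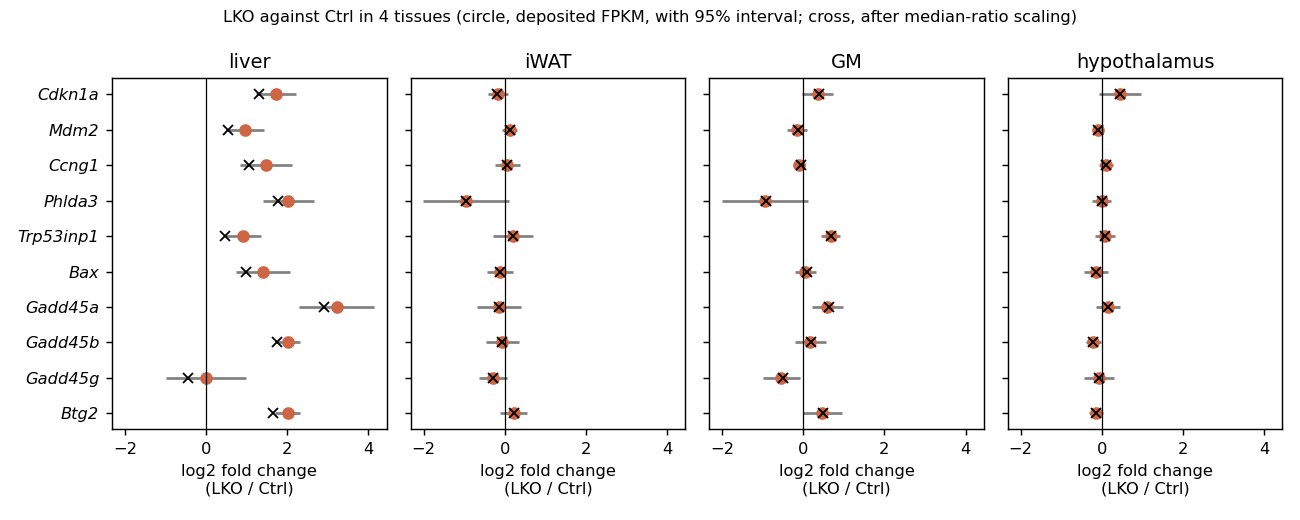
Log2 fold change (LKO / Ctrl, on FPKM + 1) of the 10 genes in each tissue; circles with grey 95% intervals are from limma on the deposited FPKM, 3 libraries per group, and crosses are the values after median-ratio scaling. In liver 9 circles lie between 0.90 and 3.22, and the crosses lie to their left; outside liver circles and crosses nearly coincide.

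The effect of the knockout was compared between tissues in a fit of all 24 libraries, taken as independent. It differed for 9 of the 10 genes (F test over 3 contrasts, limma, adjusted p from 1.74e-06 for *Gadd45b* to 0.0369 for *Trp53inp1*), as for 33.5% of the 15849 genes tested. *Gadd45g* did not pass (adjusted p = 0.727). Against iWAT and against hypothalamus the liver effect differed for 9 genes each, beside 34.7% and 32.1% of all genes, and against GM for 8, beside 32.8%. The gene that differed from iWAT and hypothalamus but not from GM was *Trp53inp1*, whose liver effect exceeded that in GM by 0.23 ± 0.25 on the log2 scale (adjusted p = 0.532). Its F test was lost after median-ratio scaling (adjusted p = 0.115, in a range of 0.00544 to 0.184 over all settings) and in 14 of the 24 fits that left out 1 library. Between iWAT, GM and hypothalamus none of the 10 differed in any of the 3 pairs, with adjusted p of at least 0.517. For *Phlda3* the liver effect exceeded that in iWAT by 2.98 ± 0.59 and that in GM by 2.98 ± 0.59 (adjusted p = 0.00087 and 0.0011).

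Among Ctrl mice the 10 genes differed in the tissue where they were highest. Each level is the mean FPKM ± SD of 3 libraries. Of the 30 pairs of neighbours in their orders 19 differed with an adjusted p under 0.05 (limma, all 24 libraries). Of all genes 77.9% differed between liver and iWAT, 68.7% between liver and GM, 85.9% between liver and hypothalamus, 74.6% between iWAT and GM, 78.8% between iWAT and hypothalamus and 83.5% between GM and hypothalamus. Liver had the lowest mean for 7 of the 10, *Mdm2*, *Ccng1*, *Phlda3*, *Gadd45a*, *Gadd45b*, *Gadd45g* and *Btg2*. For *Mdm2* and *Gadd45g* liver did not differ from its nearest neighbour (adjusted p = 0.0504 and 0.243).

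*Cdkn1a* was highest in iWAT at 78.2 ± 7.83 FPKM, above liver (adjusted p = 1.82e-07). Liver, GM at 17.6 ± 3.29 and hypothalamus at 14.6 ± 4.75 FPKM followed, and these neighbours did not differ beyond their spread. The LKO liver mean of 77.6 FPKM was thus near the Ctrl iWAT mean. *Phlda3* was also highest in iWAT (205 ± 42.1 FPKM), then in GM (87.7 ± 58.9) and hypothalamus (49.1 ± 6.21), which did not differ from each other. Ctrl liver held 0.446 ± 0.0726 FPKM of it, below hypothalamus (adjusted p = 3.13e-10). *Btg2* followed the same order, with 15.0 ± 1.98 FPKM in iWAT, 6.68 ± 1.70 in GM, 5.77 ± 0.333 in hypothalamus and 2.76 ± 0.414 in liver, and again GM and hypothalamus did not differ (adjusted p = 0.36).

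*Ccng1* was highest in muscle, at 245 ± 2.04 FPKM in GM, 33.6 ± 2.65 in iWAT, 13.9 ± 1.16 in hypothalamus and 8.5 ± 0.892 in liver, and every neighbour differed. The GADD45 genes were highest in GM too. *Gadd45a* was 19.7 ± 4.39 FPKM there, and *Gadd45b* 10.8 ± 2.26 FPKM. For both, hypothalamus and iWAT did not differ (adjusted p = 0.47 and 0.169), and liver was lowest, at 0.817 ± 0.419 and 0.521 ± 0.236 FPKM. *Gadd45g* was 117 ± 27.2 FPKM in GM, 67.0 ± 5.0 in iWAT, 26.5 ± 5.80 in hypothalamus and 19.9 ± 2.96 in liver.

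*Trp53inp1* alone of the 10 was highest in Ctrl liver, at 21.2 ± 2.90 FPKM, above iWAT at 9.63 ± 1.73 (adjusted p = 1.52e-05). Hypothalamus (4.01 ± 0.638) and GM (3.42 ± 0.119) did not differ. *Bax* was 33.4 ± 6.18 FPKM in hypothalamus and 30.7 ± 5.43 in iWAT, which did not differ, then 17.1 ± 0.749 in liver and 11.6 ± 0.559 in GM. *Mdm2* had the narrowest range, from 9.37 ± 0.162 FPKM in liver through 11.7 ± 0.526 in iWAT to 18.5 ± 1.71 in GM and 18.7 ± 0.649 in hypothalamus, and the last pair did not differ (adjusted p = 0.917).

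**Figure D4:**
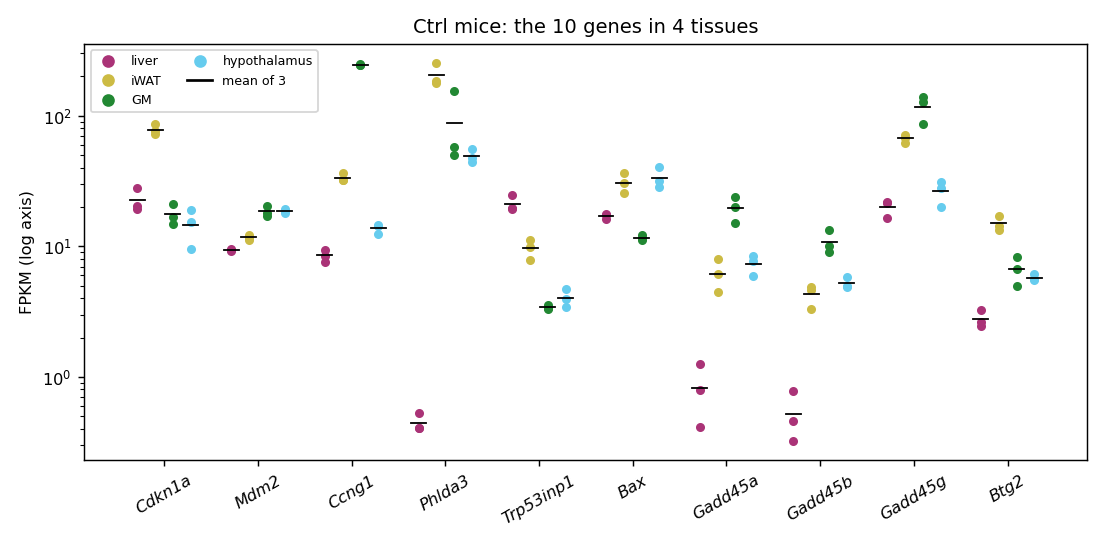
Level of the 10 genes in the 12 Ctrl libraries, in FPKM on a log axis; each point is a library, colours give the tissue and bars the mean of 3. Every liver point lies below all other points for 6 genes, with *Phlda3*, *Gadd45a* and *Gadd45b* near or under 1 FPKM, and the *Ccng1* points span 7.64 to 247 FPKM.

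The genes whose levels were most like those of *Cdkn1a* over the 24 libraries, by the Pearson correlation of log2(FPKM + 1) among 15849 genes, were *Rnpepl1* (r = 0.945), *Hmox1* (0.939), *Lgals4* (0.932), *Ifi30* (0.932) and *Serpinb8* (0.930). The 24 points fall into 8 groups of tissue and genotype, and these correlations are a description with no test.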

How the data were processed

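Bulk RNA-seq libraries (TruSeq RNA v2, without strand marking; paired ends) from 4 tissues of Ctrl and LKO mice were analysed, 3 per group, 24 in all. Replicates are separate samples by their labels, so p-values measure the spread between these samples. The authors deposited FPKM per gene in a joined table of 24532 genes, relative to library size, and library tables with coverage, FPKM and TPM, the latter scaled to a fixed sum. The submitters' processing notes name FastQC 0.11.5, Trimmomatic 0.32, HISAT2 2.0.5, Bowtie2 2.2.6, STAR 2.5.2b, StringTie 1.3.3b and mm10, without roles. No column belonged to other samples. The deposited FPKM was the same in both tables, within a small tolerance, for 99.6% to 99.7% of genes. Deposited coverage served only to infer depth, from its ratio to FPKM. Within a small tolerance 67.4% to 68.3% of the genes of a library at 1 FPKM or more shared this ratio. Values are not counts, so count models and counting errors were not used.

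Each tissue was fitted with limma 3.58.1 in R 4.3.3 (eBayes with trend) on log2(FPKM + 1), over genes that reached 1 FPKM in 3 or more of the 6 libraries, with Benjamini-Hochberg adjustment over all of them. Fold changes on this scale understate those of low genes. Differences between tissues and Ctrl levels came from a fit of all 24 libraries. The fits were tested on simulated data. Alternatives were a pseudocount of 0.1, other filters, TPM, median-ratio and quantile scaling, ordinary variances, 1 fit, a replicate block, a 2-fold limit and leaving out each library. The 10 genes and all lists were chosen with earlier results of these data known. Named besides the 10 were *Trp53*, *Mdm4* and *Crif1*, from each list up to 3 of the largest changes passing the adjusted criterion in liver and 1 passing with unadjusted p elsewhere, and the 5 genes most like *Cdkn1a*. *Ly6g*, *Sesn2*, *Chek2*, *Trp53inp2* and the genes that overlap *Cdkn1a*, *Bax* and *Gadd45a* are named outside this rule, after their values or positions were seen. Motifs were counted in RefSeq windows of GRCm38.p6, the same build as mm10. Tables and plots were handled in Python 3.11.15 with numpy 2.4.6, pandas 2.3.3 and matplotlib 3.10.9.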

Additional observations from a re-analysis of the deposited data

Results flagged for a closer look

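The effect of the liver knockout differed between the 4 tissues, by the F test over the 3 contrasts of the liver effect with the others (limma, adjusted over 15849 genes, of which 33.5% passed), for 9 of the 10 genes. The adjusted p was 0.000585 for *Cdkn1a*, 0.000494 for *Mdm2*, 0.000386 for *Ccng1*, 0.00178 for *Phlda3*, 0.0369 for *Trp53inp1*, 0.0011 for *Bax*, 2.81e-05 for *Gadd45a*, 1.74e-06 for *Gadd45b* and 6.28e-06 for *Btg2*. *Phlda3* had positive values in liver (2.03) and negative ones in iWAT (−0.95) and GM (−0.95), of which the liver value passed its own test. The result for *Trp53inp1* was lost with median-ratio or quantile scaling, with ordinary variances, without a filter, and in 14 of the 24 fits that left out 1 library.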

How the results depend on the processing

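In liver 9 of the 10 genes passed, and 5 with ordinary variances, where *Mdm2* (adjusted p = 0.0587), *Ccng1* (0.0544), *Trp53inp1* (0.0617) and *Bax* (0.0642) were lost. Leaving out 1 library gave 5 to 9, with 5 without LKO 2; with any 1 LKO library left out *Phlda3* and *Gadd45b* could not be tested. Median-ratio scaling or a 2-fold limit gave 7, without *Mdm2* and *Trp53inp1*. A mean of at least 5 FPKM also gave 7, of the 8 that could then be tested, since *Phlda3* and *Gadd45b* could not. In GM none of the 10 passed, and *Trp53inp1* alone of them without LKO 1, where 13 of all genes tested did, so the range was 0 to 1. With unadjusted p, 2 passed in GM, 1 with a mean of at least 5 FPKM, 0 with a 2-fold limit and 1 to 4 with a library left out. In iWAT 0 passed with unadjusted p, 1 with all 24 libraries in 1 fit and 0 to 1 with a library left out, and in hypothalamus 0 and 0 to 1. Effects that differed between tissues numbered 8 to 10, and neighbouring Ctrl levels 17 to 23 of 30. *Trp53inp1* lost that F test without a filter (adjusted p = 0.0513), with median-ratio (0.115) or quantile scaling (0.184) and with ordinary variances (0.0592). It was also lost in 14 of the 24 fits without 1 library (0.052 to 0.0912): without liver Ctrl 2, Ctrl 3, LKO 2 or LKO 3, iWAT Ctrl 2 or Ctrl 3, GM Ctrl 1, LKO 2 or LKO 3, or any hypothalamus library but Ctrl 3. *Gadd45g* passed it without liver LKO 1 (0.0444).

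Pairing by number was to be assumed where the deviations of all 3 same-numbered pairs of a tissue correlated above 0.1. No tissue met this (correlations −0.13 to 0.35, all positive in liver and GM), and in none did each Ctrl library correlate best with the LKO library of its number, so the numbers were not taken as pairs. With the replicate block 9 genes passed in liver, 0 in each other tissue and 1 with unadjusted p in iWAT, and 9 effects differed between tissues. Over all genes it gave 3031 calls in liver, against 3006, and 0 in hypothalamus, against 3.

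Log2 fold changes that changed sign belonged to genes that had not passed. *Gadd45g* in liver, −0.01, was 0.10 with TPM and ran from −0.43 to 0.50 with a library left out, the extremes being without LKO 2 and LKO 1. With a library left out the sign also turned in iWAT for *Ccng1* (−0.057 to 0.16), *Bax* (−0.24 to 0.0066), *Gadd45a* (−0.32 to 0.032) and *Gadd45b* (−0.20 to 0.087), and in GM for *Bax* (−0.0069 to 0.17). In hypothalamus it turned for *Phlda3* (0.015 with TPM, −0.081 to 0.090 with a library left out), *Trp53inp1* (−0.016 to 0.17) and *Gadd45g* (−0.25 to 0.063).

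Over all genes in liver the 3006 calls became 1776 with a mean of at least 5 FPKM, 4822 with TPM, 1920 with median-ratio scaling, 1675 with quantile scaling, 1499 with ordinary variances, 1067 with a 2-fold limit and 1343 to 3907 with a library left out. In iWAT 0 became 14 with either scaling, 304 with all 24 libraries in 1 fit and 0 to 106 with a library left out. In GM 0 became 18 in that fit and 0 to 13, and in hypothalamus 3 became 0 without a filter, 1 with TPM, 0 with ordinary variances, 8 in that fit and 0 to 9. The causes were not tested. The number of libraries limits the precision.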
